A study of Mus musculus with 94 samples.

Results

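The 12 macrophage segments described here are the IBA1+ areas of 4 mouse kidney sections, 2 from uninjured controls (CTRL) and 2 from vehicle-treated mice 1 day after unilateral ischemia-reperfusion injury (IRI). They were chosen by their labels and make up 12 of the 94 segments that were profiled with the GeoMx digital spatial profiler. Each group held 6 segments, 4 from the cortex and 2 from the medulla, so that every section gave 2 cortical regions and 1 medullary region. The same 12 regions also gave a tubular segment each, stained for panCK with or without CD10, and these were used for comparison.

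All mice were C57BL/6 males. Vehicle was DMSO, injected intraperitoneally before the left renal pedicle was clamped and reopened, and these mice did not receive entospletinib, the inhibitor of the immune kinase SYK that was given to other groups of the study. The control segments are labelled CTRL only. The protocol text shared by all samples names contralateral, uninjured kidneys as controls, and the study's methods allow these or kidneys of healthy mice. A contralateral kidney comes from an animal that has undergone surgery and is not the same as a naive kidney. Regions were picked by eye on formalin-fixed, paraffin-embedded sections with the stains as guides and with glomeruli avoided. The prefix of the titles was read as the section, since the labels do not say that it marks 1 mouse. The p-values therefore measure spread between sections, with 2 sections per group. That spread was estimated jointly over the sections of all groups of the study, not from the 4 compared sections alone.

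Macrophages are phagocytes that lie between the tubules and capillaries of the healthy kidney. After ischemia, monocytes enter from the blood and give rise to further macrophages, and the resulting population is known both for inflammatory signaling and for roles in repair. IBA1 is a calcium-binding protein of the monocyte and macrophage lineage and is widely used to stain these cells in tissue. In this assay, probes hybridized to RNA carry a tag that is released by light from the stained area alone and then counted, so that a segment is a small area of tissue rather than a pure cell type, and fewer cells of a type cannot be told apart from less RNA per cell.

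Identifiers of 20175 probes are given in the files without gene names, so no gene, pathway, or marker gene is named. A probe was tested if its counts summed to 20 or more over the 12 segments, which 17701 probes did and 2474 did not. The threshold passed through a dense part of the distribution, with 425 probes at a sum of 20 and 445 at 19. The tested probes held at least 97.18% of the counts of each section.

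The macrophage segments were shallow, and the control segments were the shallowest. Total counts, each count being 1 unique molecular identifier, ranged from 16693 to 146173 in the 6 control segments (median 73550) and from 80096 to 314406 in the 6 vehicle segments (median 186336). The 3 control segments under 50000 counts were cortical, with 26729 and 16693 counts in control section 1 and 31069 in control section 2, and no vehicle segment was that low. Summed over regions, the sections held 159453 and 298063 counts in controls and 719242 and 452768 in vehicle. The medullary segment supplied 72.8% of the counts of control section 1, against 49.0% in control section 2 and 43.7% and 41.0% in the vehicle sections, so sums over all regions weigh the regions unequally. With 2 sections per group, an exact two-sided permutation test cannot go below 0.333, and no difference in depth was tested.

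The number of probes with at least 1 count followed the totals. It ranged from 8231 to 19351 in control segments and from 16996 to 19931 in vehicle segments. After every segment was thinned to 16693 counts, the ranges were 7943 to 9130 in controls and 7577 to 8296 in vehicle. A single probe, RTS0070220, was the most counted in 12 of 12 segments, at 2.62% to 4.67% of their counts (95% Wilson half-width at most 0.313 percentage points, covering counting error only). Its log2 fold change at day 1 was 0.19 ± 0.25 (SE, adjusted p = 0.892 by the quasi-likelihood test of edgeR, adjusted by the Benjamini-Hochberg method).

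**Figure D1:**
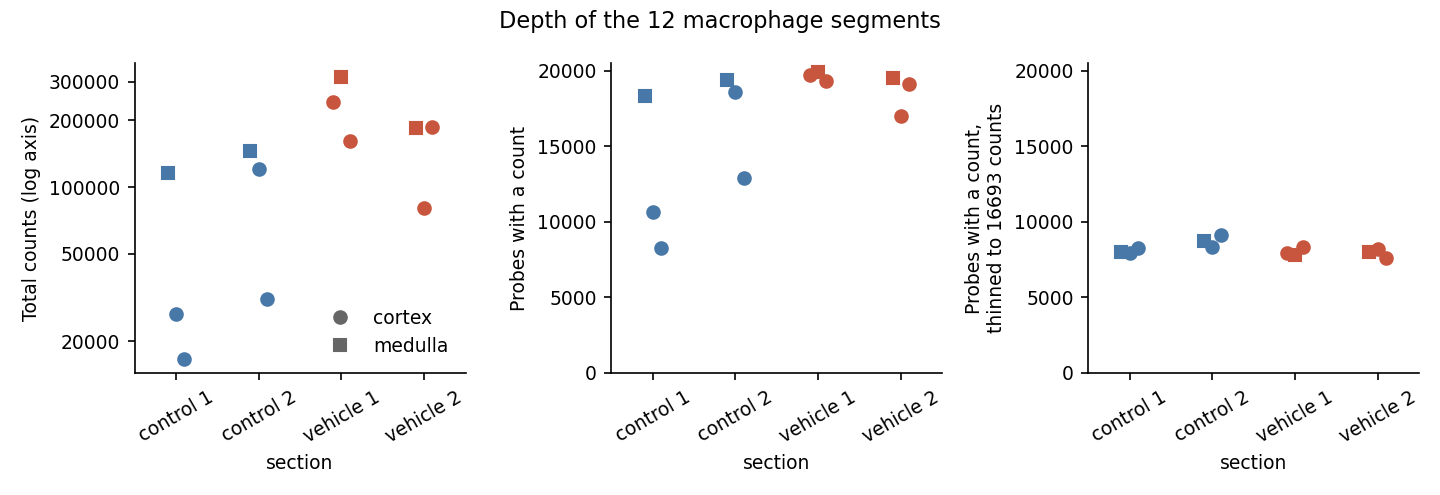
Depth of the 12 macrophage segments, by section on the x axis, with controls in blue, vehicle day 1 in red, cortex as circles, and medulla as squares. Total counts (log axis) fall to 16693 in control cortex, and the number of probes with a count spans 8231 to 19931 as deposited but 7577 to 9130 when every segment is thinned to 16693 counts.

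Because no marker gene could be read, the IBA1 label was checked with probes that separated macrophage from tubular segments in the 5 other groups of the study. Of 20175 probes, 401 were higher in macrophage segments there (1.99%) and 159 were higher in tubular segments (0.788%), which is 2.78% of all probes. These lists are called macrophage-leaning and tubule-leaning below. They come from other sections, but they were defined by the stain and name no cell type. All 5 groups had undergone IRI, so no uninjured section entered the choice of these probes.

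The macrophage-leaning probes took a larger share of counts in the macrophage segment than in the tubular segment of the same region in 12 of 12 regions. Their summed share ranged from 2.80% to 4.85% in control macrophage segments and from 1.98% to 6.94% in vehicle macrophage segments. In tubular segments it ranged from 0.895% to 1.17% in controls and from 1.01% to 3.76% in vehicle. The tubule-leaning probes were present in every macrophage segment, at 2.30% to 6.35% of counts in controls and 0.554% to 5.58% in vehicle, against 5.25% to 9.89% and 1.23% to 5.78% in the tubular segments. Their share was lower in the macrophage than in the tubular segment of the same region in 12 of 12 regions. The half-widths of the 95% Wilson intervals of these shares were at most 0.300 percentage points.

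A single vehicle segment stood apart. The second cortical segment of vehicle section 2 had the lowest macrophage-leaning share of the 12, 1.98%, and the highest tubule-leaning share among vehicle macrophage segments, 5.58%, close to the 5.78% of its own tubular segment. Across the 3160 probes with 100 counts or more, its log2(CPM + 50) correlated with those of its tubular segment at r = 0.946, while the other 11 pairs of segments ranged from 0.627 to 0.927. These correlations are across probes, share the region and the run, and depend on depth. Each count that leads a comparison was therefore also computed without this segment.

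**Figure D2:**
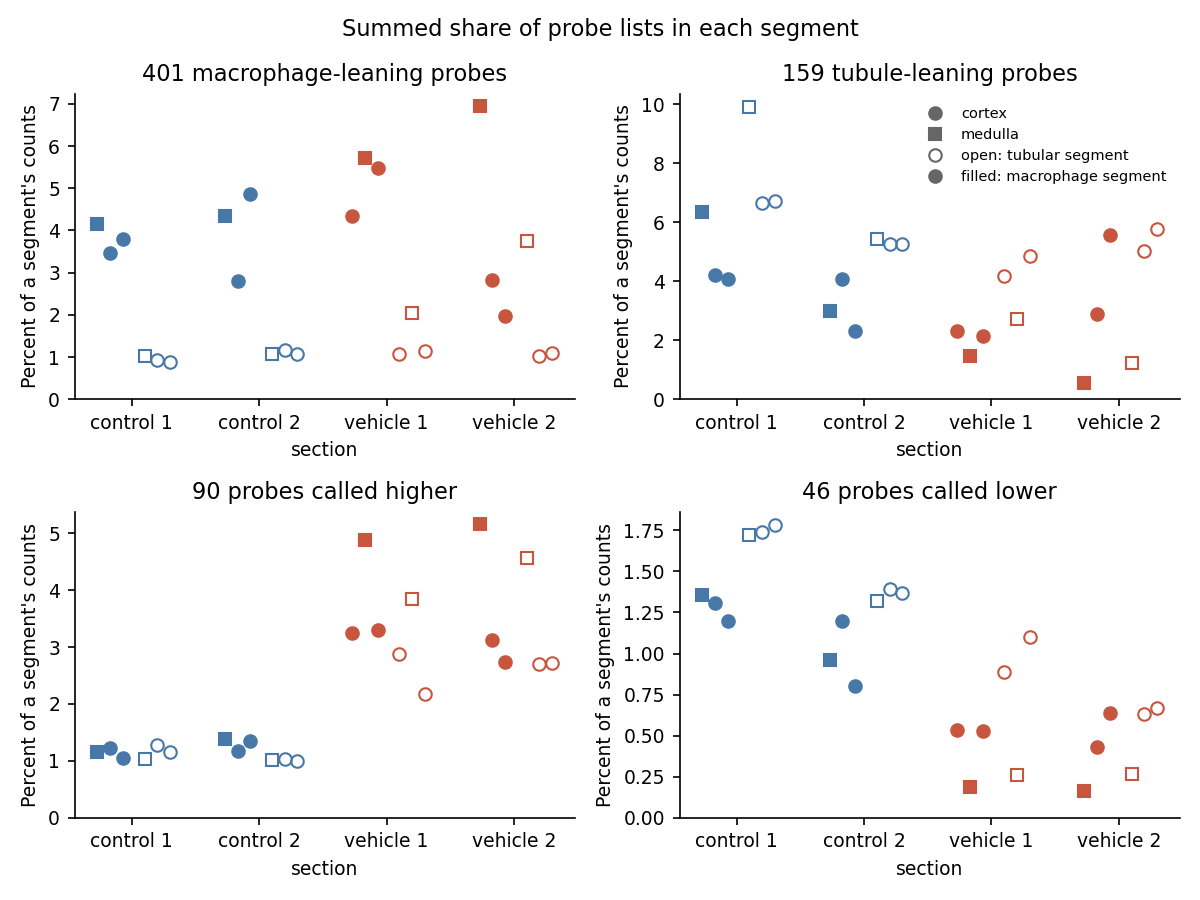
Summed percent of a segment's counts held by 4 lists of probes in macrophage (filled) and tubular (open) segments of each section, with controls in blue, vehicle day 1 in red, cortex as circles, and medulla as squares. The 2 upper panels hold the compartment-leaning lists, and the 2 lower panels hold the probes called in the comparison of day 1 with control, whose macrophage values are a description of that call.

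The first comparison asked which probes differed in macrophage segments 1 day after IRI. Of 17701 probes, 136 were called (0.768%), of which 90 were higher (0.508%) and 46 were lower (0.26%) in vehicle day 1 than in control. A probe was called when its log2 fold change exceeded 1 in either direction and its adjusted p was under 0.05 by edgeR's quasi-likelihood test on section sums. At an unadjusted p under 0.05, 1905 probes differed. The median log2 fold change was 1.61 among the probes that rose and −1.55 among those that fell, against −0.03 over all probes.

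The calls separated the sections fully and the segments in part. They were chosen on sums of these same counts, so this separation is largely fixed by that choice and supports nothing further. Both vehicle sections lay above both control sections for 90 of 90 higher probes and below them for 46 of 46 lower probes, where 20.6% and 18.6% of all tested probes did so. All 6 vehicle segments lay above all 6 control segments for 39 of the 90 probes (0.678% of all probes did), and below them for 8 of the 46 (0.294%). The 90 higher probes together made up 1.05% to 1.39% of the counts in control segments and 2.74% to 5.16% in vehicle segments. The 46 lower probes made up 0.805% to 1.35% in control segments and 0.164% to 0.637% in vehicle segments. The ranges of the groups did not overlap in either case, which the choice of the probes fixed in large part.

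Calls were rare where counts were low. Of the 9365 probes with at least 20 but fewer than 50 counts over the 12 segments, 2 were called higher and 3 lower, or 0.0534%. The share was 0.502% of the 5176 probes from 50 counts up to 100, 2.55% of the 2861 probes from 100 up to 500, and 10.7% of the 299 probes with 500 counts or more, of which 28 rose and 4 fell. The median SE of the log2 fold change dropped from 0.61 in the lowest of these classes to 0.28 in the highest. The 90 higher probes had a median of 29 control counts in all, 36 of them had at most 20, and 7 had at most 3, whereas no called probe had a control or vehicle sum of 0. A probe that was not called cannot be taken as unchanged.

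**Figure D3:**
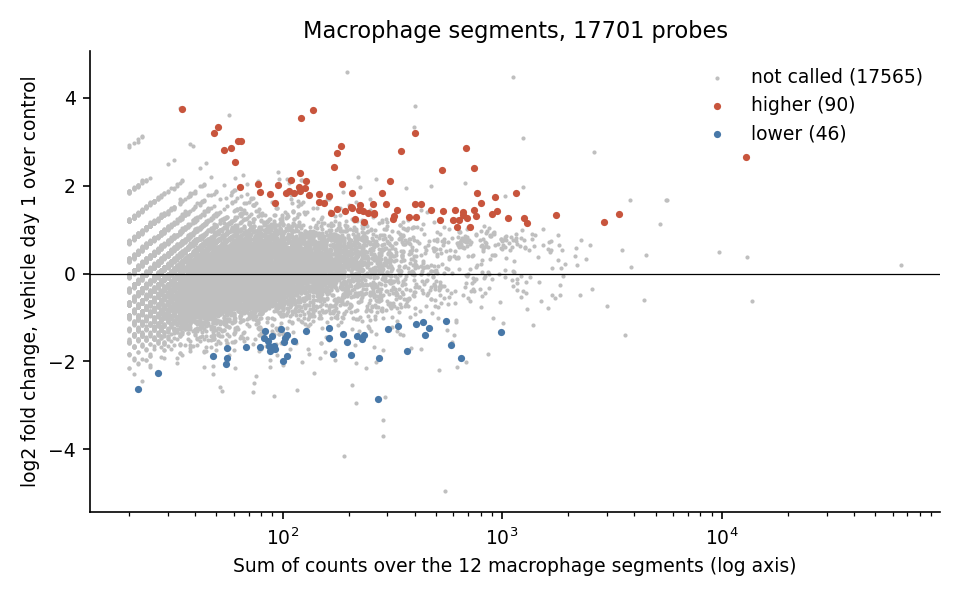
Log2 fold change of vehicle day 1 over control in macrophage segments (y axis) against the sum of counts over the 12 segments (x axis, log scale), with 1 point per tested probe. The 90 higher (red) and 46 lower (blue) calls sit mostly to the right, and the spread of uncalled probes (gray) widens toward 20 counts.

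The number of calls and the probes called depended on each of the 4 sections. Whichever section was left out, most of the 136 probes were no longer called, and some probes outside the 136 were called. Without control section 1, 23 probes were called, without control section 2, 81, without vehicle section 1, 35, and without vehicle section 2, 63. Leaving out control section 2 also turned the balance of directions, to 22 higher and 59 lower. The counts were 71 higher and 61 lower with DESeq2, and 384 higher and 37 lower when each segment weighed the same in limma, a scale on which the median of all probes moved to 0.35. Without the 3 control segments under 50000 counts, 81 probes were called, and without the vehicle segment that resembled its tubular segment, 289.

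The calls with the smallest adjusted p, 2 in each direction, are described individually. Values are given first per segment, as counts scaled to a common total of the segment (CPM). They are then given per section, as CPM over the tested probes of the section after upper quartile normalization.

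RTS0079675 rose. Its control segments ranged from 24.8 to 121 CPM (median 71.0), on 1 to 14 counts each. Its vehicle segments ranged from 85.5 to 935 (median 373), on 16 to 294 counts. The 2 vehicle medullary segments were the highest, at 935 and 890, and the groups overlapped through the second cortical segment of vehicle section 2, at 85.5, which lay under 2 control segments. Section values were 103 and 58.0 in controls and 643 and 466 in vehicle, or 80.5 ± 31.9 and 554 ± 125 (SD, n = 2). The log2 fold change was 2.87 ± 0.36 (SE, adjusted p = 3.01e-05, edgeR).

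RTS0070030 rose without overlap of the segments. Control segments ranged from 0 to 161 CPM (median 80.5), and vehicle segments from 237 to 587 (median 437). The value of 0 belonged to a cortical segment of control section 1 with 16693 counts, in which a count of 0 allows up to 179.7 CPM. Section values were 77.3 and 86.9 in controls and 469 and 386 in vehicle, or 82.1 ± 6.83 and 428 ± 58.7 (SD, n = 2). The log2 fold change was 2.37 ± 0.33 (SE, adjusted p = 0.000127, edgeR).

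RTS0066542 fell in every region. Control segments ranged from 336 to 579 CPM (median 420), and vehicle segments from 25.0 to 154 (median 37.6), with no overlap. The highest vehicle value, 154 on 25 counts, came from the second cortical segment of vehicle section 1, and the other 5 lay at or below 70.0. Section values were 348 and 480 in controls and 74.4 and 37.5 in vehicle, or 414 ± 93.4 and 55.9 ± 26.1 (SD, n = 2). The log2 fold change was −2.85 ± 0.38 (SE, adjusted p = 0.000184, edgeR).

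RTS0065429 also fell, at lower levels. Control segments ranged from 64.4 to 187 CPM (median 135) on 2 to 19 counts each, and vehicle segments from 19.1 to 57.7 (median 31.0) on 2 to 14 counts. The groups did not overlap, but the control value nearest to the vehicle range, 64.4, rested on 2 counts. Section values were 155 and 126 in controls and 37.2 and 37.5 in vehicle, or 140 ± 20.5 and 37.3 ± 0.184 (SD, n = 2). The log2 fold change was −1.87 ± 0.30 (SE, adjusted p = 0.000678, edgeR). Thinned to the lowest total, it was −1.69 with an adjusted p of 0.0979, the only alternative under which one of the 4 probes was not called.

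**Figure D4:**
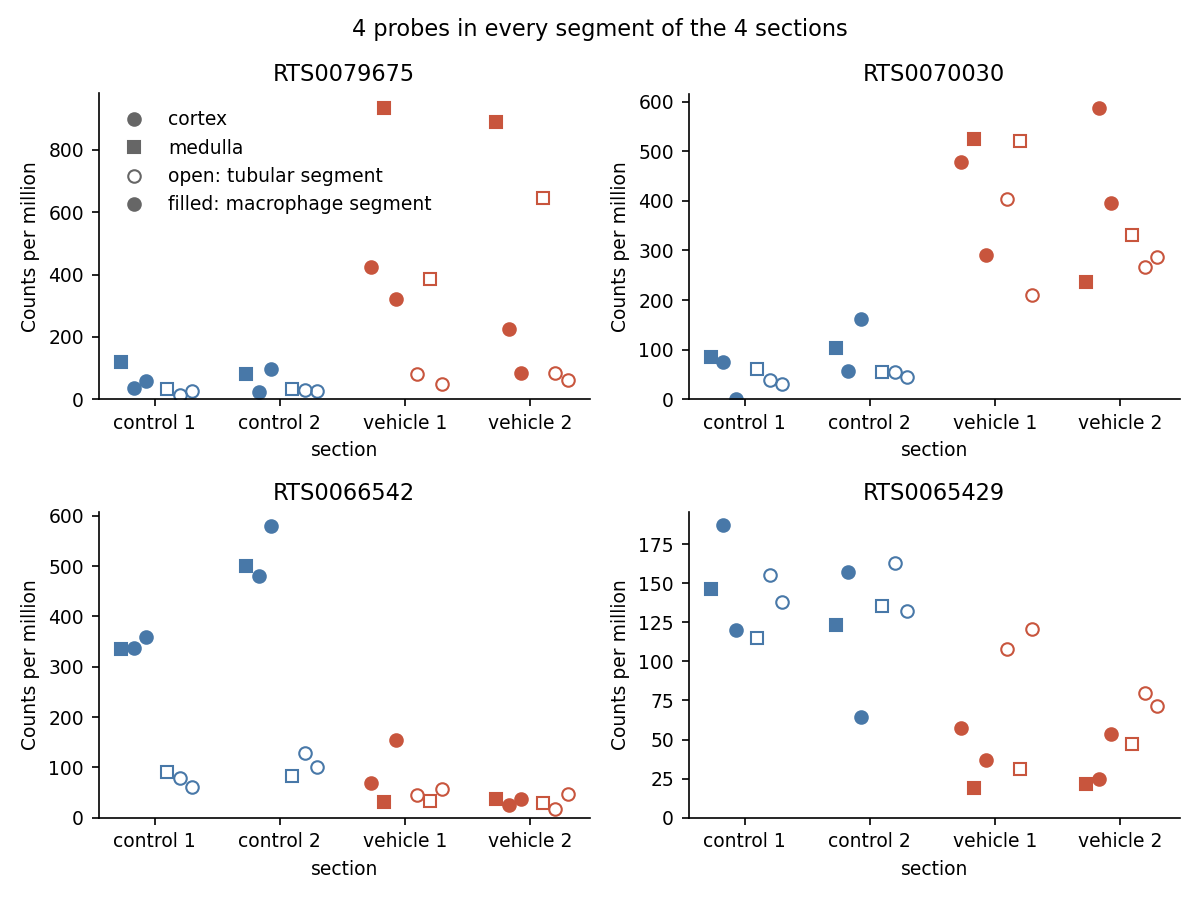
CPM of the 4 individually described probes in every macrophage (filled) and tubular (open) segment of the 4 sections, with controls in blue, vehicle day 1 in red, cortex as circles, and medulla as squares. RTS0066542 lies at 336 to 579 in control macrophage segments and at 62.0 to 129 in control tubular segments, whereas RTS0070030 has similar levels in both compartments on day 1.

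The second comparison asked whether the day 1 response of macrophage segments was the same in cortex and medulla, since ischemic injury is known to be uneven across the kidney. In medullary segments alone, 363 probes were called (2.05%), 187 higher (1.06%) and 176 lower. In cortical segments alone, 28 were called (0.158%), 15 higher (0.0847%) and 13 lower (0.0734%), although the cortex contributed 8 of the 12 segments. Depth differed between these comparisons, because the cortical segments of control section 1 held 43422 counts together and its medullary segment held 116031. The 3 shallow control segments include all cortex of control section 1, so leaving them out also removes that section from the cortical comparison. In the cortex, 3 probes were called without control section 1 and also without the 3 shallow control segments, and 6 without control section 2, all of them lower. In the medulla, 143 were called without control section 1, 153 without vehicle section 1, and 224 without vehicle section 2. Without control section 2, 253 were called there, of which 80 were higher and 173 lower, so that the balance of directions turned. Upper quartiles of the counts per probe in the cortex were 2 in control section 1, 8 in control section 2, and 20 and 13 in vehicle, a coarse base for scaling. The split of directions moved with scaling, to 21 higher and 9 lower in the cortex with TMM, 28 and 14 there with DESeq2, and 124 and 201 in the medulla with DESeq2. These counts of calls do not test whether a probe responded differently.

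The difference of the 2 effects was tested with the section in the model, and 42 probes (0.237%) differed between regions. For 37 of them (0.209%) the effect was lower in the medulla, and for 5 (0.0282%) it was higher. Both lists were chosen by this difference, so their contrast between regions is largely fixed by that choice. The 37 probes had a median log2 fold change of −2.97 in medullary segments against −0.12 in cortical segments. Of them, 26 were called in the medulla, where 2.05% of all probes were. None was called in cortical segments, where only 0.158% of all probes were, so this does not show that the cortex lacked a response. Their counts in the medulla had a median of 61 in control and 15 in vehicle. For the 5 probes the median was 3.36 in the medulla, against −0.39 in the cortex, and all 5 were called in the medulla. At an unadjusted p under 0.05, 1110 probes differed between regions.

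The difference had the same sign in the tubular segments. These are separate libraries, but they come from the same regions and sections and are not independent replicates. The tubular effect was lower in the medulla than in the cortex for 37 of 37 probes of the first list, with medians of −2.83 and −0.39, where 46.3% of all tested probes had that sign. It was higher for 5 of 5 of the second list, with medians of 3.45 and 0.05, where 53.7% did. The count of 42 probes was 33 without the vehicle segment that resembled its tubular segment, and 9 without the section in the model. Leaving out the 3 shallow control segments removed all cortex of control section 1. It thus also took away a control replicate and cannot isolate depth. Leaving out 1 section gave 17 without control section 1, 17 without control section 2, 101 without vehicle section 1, and 11 without vehicle section 2.

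The probes called over all regions were also read in each region. They were chosen on sums that contain these same counts, so their sign in each region is largely fixed by that choice and supports nothing further. Of the 90 that rose, the log2 fold change was positive for 90 in the medulla and for 89 in cortical segments, with medians of 2.05 and 1.24. Of the 46 that fell, 46 were negative in both, with medians of −2.43 in the medulla and −1.14 in the cortex. Among these 136 probes, 71 of the higher and 31 of the lower were called in the medulla alone or as well, 9 and 6 in the cortex, and 1 and 7 differed between regions. Sharing is expressed for each list: the 71 probes are 78.9% of the 90 and 38% of the 187 medullary calls, and the 31 are 67.4% of the 46 and 17.6% of the 176. In the cortex, 4 of the 90 had a count of 0 in 1 group, and setting these at 3 counts moved the cortical median to 1.23.

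All 4 individually described probes had the same sign in both regions. RTS0079675 rose in cortex (2.71 ± 0.52) and medulla (3.33 ± 0.43), as did RTS0070030 (2.66 ± 0.43 and 2.18 ± 0.47, log2 fold change ± SE). RTS0066542 fell in cortex (−2.57 ± 0.40) and medulla (−3.45 ± 0.45). RTS0065429 was called in the medulla (−2.57 ± 0.52, adjusted p = 0.000923) but not in the cortex (−1.55 ± 0.43, adjusted p = 0.151), by edgeR. None of the 4 differed between regions, with adjusted p of 0.861 to 0.991 (edgeR).

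**Figure D5:**
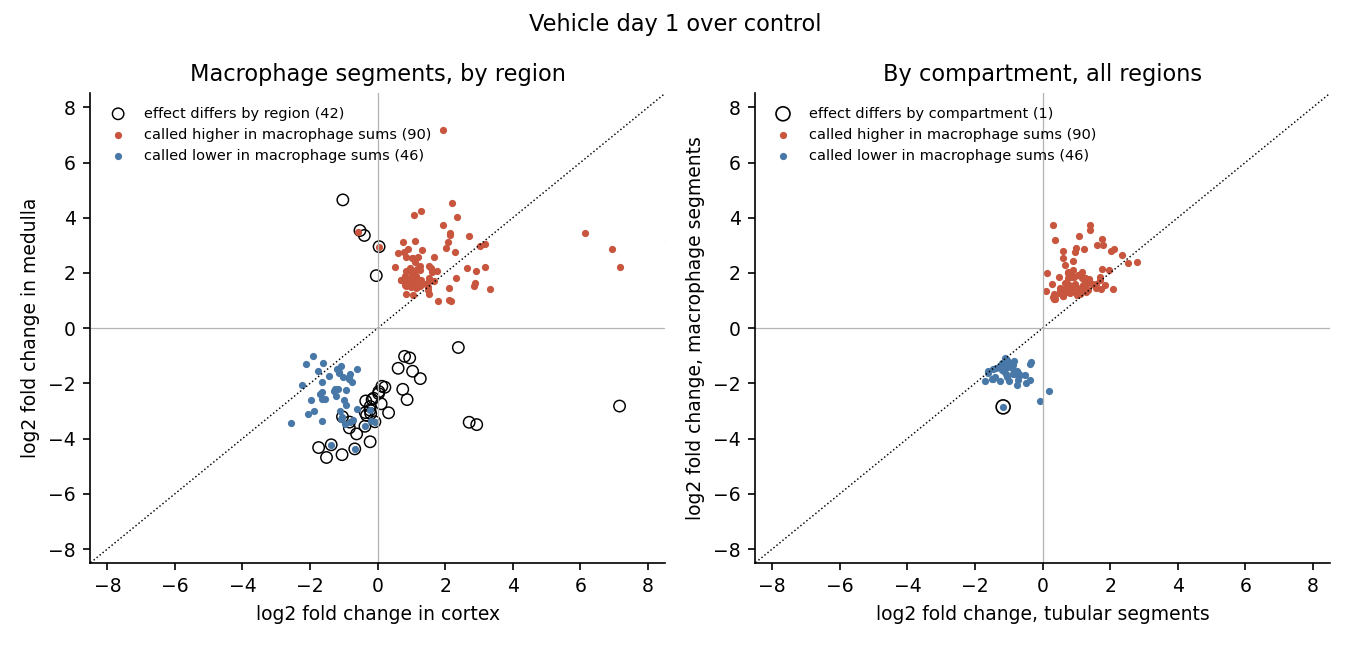
Log2 fold changes of vehicle day 1 over control for probes called higher (red) or lower (blue) in macrophage section sums. Medulla (y axis) is set against cortex (x axis) on the left, with black rings around the 42 probes whose effect differed by region, and macrophage (y axis) is set against tubular segments (x axis) on the right, with a ring around the 1 probe whose effect differed by compartment. The dotted line marks equality, and the higher probes have medians of 2.05 in medulla and 1.24 in cortex.

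The third comparison asked whether macrophage segments responded differently from the tubular segments of the same regions. In tubular segments, 23 of the same 17701 probes were called (0.13%), all of them higher, although these segments held 5.93 to 183 times the counts of the macrophage segments. In the medulla alone, 1253 tubular probes were called (7.08%), of which 615 rose (3.47%) and 638 fell (3.6%), and in the cortex alone, 6 (0.0339%). A single probe, RTS0066542, differed in its day 1 effect between compartments (0.00565% of probes), while 1155 did at an unadjusted p under 0.05. Medullary tubular segments held 4821455 and 6500412 counts in controls but 1863750 and 1235205 in vehicle. Cortical tubular segments held 2226395 to 5688838 in controls and 2848470 to 6159821 in vehicle. Tubular sums over regions thus gave the medulla less weight in vehicle than in control, and region was not a term in this test. DESeq2 gave 7 such probes, 6 of them with a higher effect in macrophage segments.

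The levels of RTS0066542 in the 2 compartments lay closer together on day 1 than in controls. In control regions it stood at 336 to 579 CPM in macrophage segments and at 62.0 to 129 in tubular segments, without overlap. On day 1 the ranges were 25.0 to 154 and 17.7 to 56.3, which overlapped, and the macrophage segment was still the higher of its region in 4 of 6 regions. In tubular segments its log2 fold change was −1.17 ± 0.25 (adjusted p = 0.102, edgeR), and the macrophage effect minus the tubular effect was −1.71 ± 0.28 on the log2 scale (adjusted p = 0.00574, edgeR). It was not called in this test without control section 2, without vehicle section 1, or without vehicle section 2, nor when every sum was thinned or the section was left out of the model.

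The other 3 described probes were not called for a compartment difference. RTS0079675 rose in tubular segments by 2.12 ± 0.24 (log2 fold change ± SE, adjusted p = 0.0124), and its tubular level on day 1 was highest in the medullary segments, at 387 and 645 CPM against 48.1 to 85.6 in the cortex. RTS0070030 rose there by 2.54 ± 0.24 (adjusted p = 0.00533), from 31.0 to 61.0 CPM in controls to 210 to 520 on day 1. RTS0065429 gave −0.74 ± 0.21 (adjusted p = 0.247), all by edgeR. Adjusted p of the compartment difference ranged from 0.726 to 0.973 for these 3.

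Nearly all macrophage calls had the same sign in tubular segments, which share regions and sections with the macrophage segments. Of the 90 probes that rose, 90 had a positive tubular log2 fold change (median 0.99, where 57.3% of all probes were positive). There, 11 were called higher, against 0.13% of all probes. Of the 46 that fell, 45 had a negative one (median −1.07, where 42.7% were negative), and none was called, where the tubular comparison over all regions called no probe lower. In the tubular medulla, 70 of the 90 and 30 of the 46 were called, with medians of 1.90 and −2.25. Of all probes, 3.47% were called higher there and 3.6% lower. The calls of the medulla in the 2 compartments shared 131 higher probes, 70.1% of the macrophage list and 21.3% of the tubular list, and 136 lower probes, 77.3% and 21.3%.

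The compartment-leaning lists had medians of opposite sign in macrophage segments on day 1. Both lists were defined in injured kidneys only, so part of a difference from uninjured control can come from that choice. Of 400 tested macrophage-leaning probes, 17 were called higher and 2 lower (median log2 fold change 0.50, against −0.03 over all probes), where 0.508% of all probes were called higher and 0.26% lower. In the medulla 43 were called higher and 5 lower (median 0.82), against 187 and 176 of all 17701 probes. In the cortex 2 were called higher and 2 lower (median 0.26), against 15 and 13 of all probes. Of 159 tubule-leaning probes, none was called higher and 16 were called lower (median −0.84), and 14.5% had a positive log2 fold change, against 48% of all probes. In the medulla none was called higher and 45 were called lower (median −2.17), and in the cortex none was called higher and 4 were called lower (median −0.21). The 16 tubule-leaning probes are thus 16 of the 46 probes called lower. The tubule-leaning share of counts in the 2 medullary macrophage segments was 1.46% and 0.554% on day 1, against 6.35% and 3.00% in controls. In tubular segments of the medulla the same share was 2.74% and 1.23% on day 1, against 9.89% and 5.43%. Whether a change in the makeup of the stained areas had a part in the calls was not tested.

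The values of the called probes at other times are given beside those of day 1. The comparisons with entospletinib day 1, vehicle day 7, and vehicle day 14 used the same 2 control sections, so their fold changes are not independent of the day 1 comparison. The probes were also chosen for large effects in vehicle on day 1. Smaller medians and fewer calls in another group can come from that choice alone. For the 90 higher probes, the median log2 fold change against control was 1.61 in vehicle on day 1, 1.29 with entospletinib on day 1, 1.21 in vehicle on day 7, and 1.25 in vehicle on day 14. Of the 90, 12 were called with entospletinib (0.0791% of all probes were called higher), 37 on day 7 (1.82%), and 53 on day 14 (3.73%). For the 46 lower probes, the corresponding medians were −1.55, −0.81, −1.50, and −1.75, and the numbers called were 1 (0.00565%), 32 (1.9%), and 37 (3.55%).

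The 4 described probes followed different courses in the section sums. RTS0079675 stood at 643 and 466 CPM in vehicle on day 1, 297 and 317 on day 7, and 354 and 551 on day 14, all above the controls at 103 and 58.0. RTS0070030 went from 469 and 386 on day 1 to 136 and 206 on day 7 and 226 and 266 on day 14, against 77.3 and 86.9 in controls. RTS0066542 was at 74.4 and 37.5 on day 1 but at 292 and 291 on day 7 and 314 and 141 on day 14, against 348 and 480 in controls. RTS0065429 stayed at 37.2 and 37.5, 36.2 and 35.1, and 29.4 and 28.1 on the 3 days, against 155 and 126.

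With entospletinib on day 1, the same probes lay between the control and vehicle sections or beside the latter. RTS0079675 was at 198 and 377 CPM, below both vehicle sections and above both controls. RTS0070030 was at 324 and 407, which overlapped the vehicle sections. RTS0066542 was at 94.8 and 67.8, and RTS0065429 at 74.2 and 48.8. No difference between the treatments was tested here.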

How the data were processed

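The authors deposited raw counts of unique molecular identifiers per probe for each segment, made with the GeoMx NGS Pipeline (version 3.1.1.5 per the file headers) and taken before their background, probe, and segment filters and their upper quartile normalization. The files do not pair probes with genes. Groups and sections came from the labels. The probes, lists, and tests were chosen with earlier results of these data known.

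Counts were summed per section, and 14 macrophage sums were fitted together with edgeR 4.0.16 in R 4.3.3 (upper quartile normalization, robust quasi-likelihood test, Benjamini-Hochberg adjustment over all 17701 probes). Sums per section and region, or per section and compartment, gave the differences between effects, with the section in the model and the adjusted p alone as the threshold. SE was taken from the F statistic as |log2 fold change|/√F. Compartment-leaning probes were called by the same test on the 5 other groups. Named probes were the 2 higher and 2 lower calls with the smallest adjusted p among those whose sections did not overlap. The tests of the macrophage sums, of the regional difference, and of the compartment difference were run on simulated counts, and the regional test recovered few of the differences put in. Alternatives used TMM, DESeq2 1.42.0, limma 3.58.1, other filters, thinning, blocks, and sections or segments left out.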

Additional observations from a re-analysis of the deposited data

Results flagged for a closer look

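Among the 6 segments of a group, the highest or lowest value stood far from the rest for 3 of 34 group and measure pairs, and chance alone gives about 1 in 20. The first cortical segment of vehicle section 2 had 16996 probes with a count, when the next lowest vehicle segment had 19137. It also had the lowest total of the vehicle segments, 80096 counts. Thinned to 16693 counts it had 8191 probes with a count, within the vehicle range of 7577 to 8296. In the same segment, 8 of the 159 tubule-leaning probes had no count, against at most 2 in the other vehicle segments. RTS0066542 stood at 154 CPM in the second cortical segment of vehicle section 1, against at most 70.0 in the other vehicle segments.

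Effects differed between regions for 42 probes and between compartments for 1 probe, RTS0066542, whose log2 fold change was −1.71 (difference of macrophage minus tubular effect). Both results rest on 2 sections per group, and their causes were not tested.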

How the results depend on the processing

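The 4 described probes kept their direction under all 18 alternatives, and 1 call was lost, that of RTS0065429 in thinned sums. These probes were chosen for the smallest adjusted p in the same counts, so this was largely fixed by that choice. The numbers of calls varied. With 1 section left out, they ranged from 23 to 81 over all regions (136 with all sections), from 3 to 36 in the cortex (28), from 143 to 253 in the medulla (363), from 11 to 101 for the difference between regions (42), and from 0 to 1 for the difference between compartments (1). Thinning every sum gave 61 over all regions, 1 in the cortex, 10 between regions, and 0 between compartments, where the last had 791 probes at an unadjusted p under 0.05. Over all regions, the count was 421 with limma on section means, 269 with segments as DESeq2 replicates, and 299 with region as a term. TMM gave 74 and DESeq2 23 between regions, and DESeq2 gave 7 between compartments. Without a filter, 92 probes differed between regions. A minimum of 100 counts gave 13 in the cortex and 13 between regions. Fitting only the 4 compared sections gave 182 over all regions, 50 in the cortex, 247 in the medulla, 53 between regions, and 3 between compartments.

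The replicate block on the prefix number gave 240 over all regions, 67 in the cortex, and 488 in the medulla. Deviations of same-numbered control and vehicle sections correlated at −0.0463, where 21 pairs of groups ranged from −0.116 to 0.311. This range holds no reference for unpaired sections, so it cannot decide whether the number pairs the sections. With no replicate block for the section, 9 probes differed between regions and 0 between compartments (744 at an unadjusted p under 0.05).

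Chosen after the data were seen, leaving out the 3 control segments under 50000 counts gave 81 over all regions, 3 in the cortex, and 6 between regions, and leaving out the vehicle segment that resembled its tubular segment gave 289 over all regions. The low depth of control cortex limits every count that includes cortical segments, and 2 sections per group limit all tests.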
